A study of Caenorhabditis elegans with 6 samples.

Results

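The genes described are the Hedgehog-related ligand genes of the nematode Caenorhabditis elegans, taken as every gene whose name in the deposited tables is wrt (warthog), grd (groundhog), grl (ground-like), qua (quahog) or hog followed by a number. There are 61 of them among 46245 listed genes: 10 wrt, 17 grd, 32 grl, qua-1 and hog-1. Their RNA was measured by RNA sequencing of whole animals grown at 20 °C to the late L4 stage, the end of larval life. The ptr-8 strain (DCL289) is mutant for ptr-8 (allele mkc18), for eat-2 (ad465) and for acs-20 (tm3232). The DCL33 strain has the same eat-2 and acs-20 alleles without mkc18, and each strain gave 3 libraries. All animals thus carried mutant eat-2, which encodes an acetylcholine receptor subunit of the pharynx and whose mutants feed slowly, and mutant acs-20, which encodes an acyl-CoA synthetase. ptr-8 encodes a patched-related membrane protein. Nothing in the labels says that libraries came from separate cultures, so p-values measure only the spread between these libraries. In whole animals, fewer cells of a type and less RNA per cell cannot be told apart.

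Nematodes have no clear counterpart of the Hedgehog protein of flies and vertebrates. They have instead secreted proteins with a Wart, Ground, Ground-like or Qua domain at the amino end. In some members with a Wart, Ground or Qua domain, it is joined to a Hog domain, the autoprocessing part that Hedgehog itself carries. Many of the genes are expressed in the epidermis, in its seam cells and in the glia and pores that open through the cuticle, and many cycle with the molts. Several of the proteins are components of the cuticle or of the precuticle, the temporary matrix laid down before it. Patched-related (PTR) proteins, which are more numerous in nematodes than in other animals, are candidates for their receptors or transporters.

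Levels are FPKM (fragments per kilobase of transcript, relative to the mapped fragments of the library), divided by 1 scaling factor per library, so that levels of different genes compare per length. Between 14883 and 15461 genes per library reached 1 FPKM before scaling. From the width of the deposited intervals, the median tested ligand gene rested on 374 to 639 fragments in the ptr-8 libraries and on 218 to 731 in the DCL33 libraries. Relative to DCL33 replicate 1, DCL33 replicate 3 had the lowest depth, at 0.570. Correlations of log2 levels across genes were 0.962 to 0.981 within the ptr-8 strain, 0.961 to 0.975 within DCL33 and 0.939 to 0.969 between strains. ptr-8 itself was at 4.50, 5.12 and 5.73 in the ptr-8 strain against 23.8, 23.4 and 18.04 in DCL33 (log2 fold change -1.89, SE 0.15, limma adjusted p = 0.00542). The part of the gene that mkc18 removes is not given in the sources used here.

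A few ligand genes made up most of the ligand RNA. Averaged over all 6 libraries, 10 of the 61 genes were at 100 FPKM or more, 17 between 10 and 100, 12 between 1 and 10, and 22 below 1. The 17 include grl-32, described below, and are 16 without it. The ground-like genes supplied 46.9% of the summed level in the ptr-8 strain and 45.7% in DCL33, the groundhog genes 36.3% and 37.8%, and the warthog genes 13.5% and 12.8%. These shares leave out grl-32, an annotated pseudogene with 180 exonic bases. Its values were 34.0, 80.9 and 0 in the ptr-8 strain and 313, 49.7 and 0 in DCL33, but they rest on at most 2 implied fragments per library, and each deposited interval reaches down to 0. Its log2 fold change was -0.82 (SE 2.52, limma adjusted p = 0.879).

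**Figure D1:**
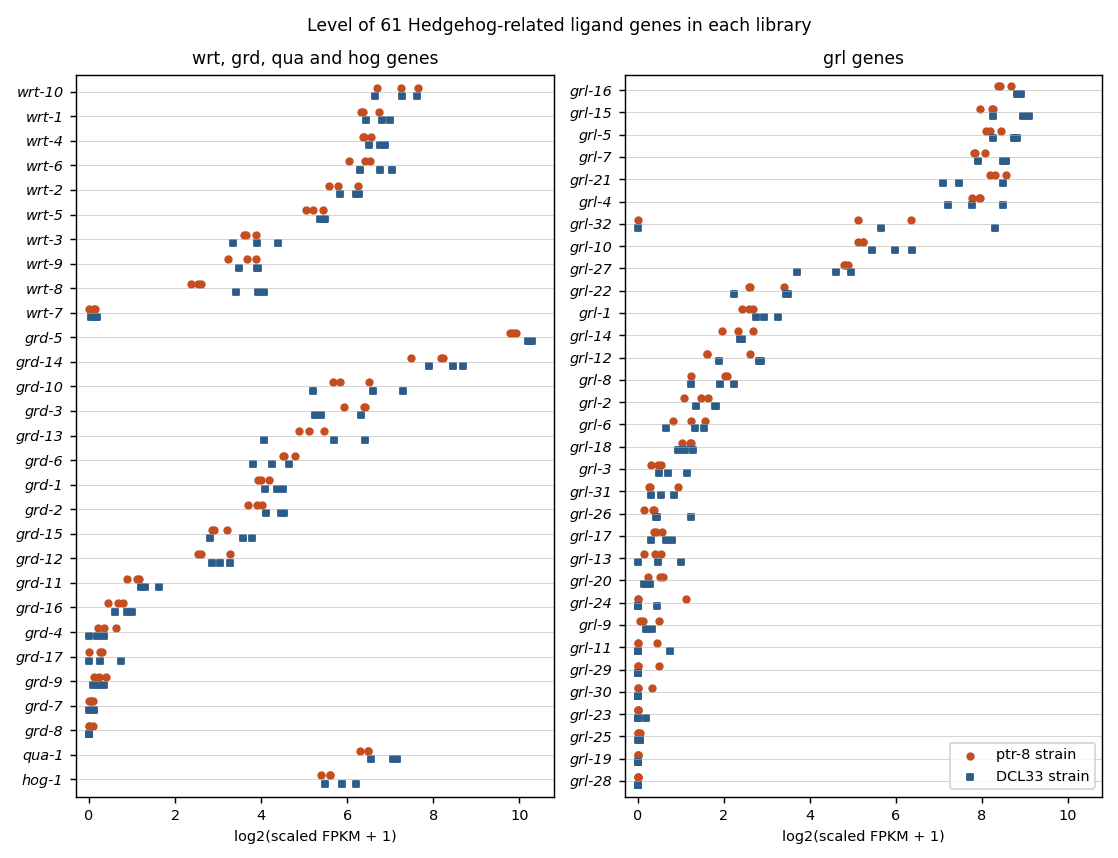
Level of each of the 61 ligand genes in each library, as log2(scaled FPKM + 1) on the horizontal axis. Circles are the 3 ptr-8 strain libraries and squares the 3 DCL33 libraries, and genes are ordered by mean level within a family. grd-5 stands highest, the wrt-8 points of the strains lie apart, and 22 genes lie near 0.

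Among the warthog genes, which carry a Wart domain, all but wrt-7 were clearly expressed. Of 10, 9 were tested, with mean levels from 8.94 for wrt-8 to 151 for wrt-10. wrt-10 had 102, 199 and 151 FPKM in the ptr-8 libraries and 99.3, 197 and 155 in the DCL33 libraries. Its strain means, 151 ± 48.2 and 150.3 ± 48.9 (SD, n = 3 each), were nearly equal. wrt-1, which lies tail to tail with wrt-10 on chromosome II with a gap of 52 bp, had 78.4, 105 and 81.7 FPKM in the ptr-8 strain against 85.4, 110.3 and 126 in DCL33. wrt-4 had 92.9, 82.998 and 81.7 FPKM in the ptr-8 strain against 90.1, 108 and 116 in DCL33. For both genes the strains overlapped. wrt-6 had 64.9, 92.0 and 84.6 FPKM in the ptr-8 strain against 77.8, 131 and 107 in DCL33, again with overlap. wrt-2, whose promoter is widely used to mark seam cells, averaged 58.5 ± 14.4 in the ptr-8 strain and 68.2 ± 10.7 in DCL33 (SD, n = 3 each). wrt-5 had 35.8, 42.3 and 31.8 FPKM in the ptr-8 strain against 42.9, 43.6 and 40.6 in DCL33, and only ptr-8 replicate 2 reached into the DCL33 range. wrt-3 averaged 12.2 ± 1.38 in the ptr-8 strain and 14.3 ± 5.35 in DCL33, but it shares 1686 bp on the same strand with the pseudogene F38E11.8, so its reads could have been split. wrt-9 averaged 11.3 ± 2.68 in the ptr-8 strain and 12.7 ± 2.23 in DCL33, with overlap. wrt-7 reached at most 0.139 FPKM in any library.

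Among the groundhog genes, grd-5 (WBGene00001694, chromosome V, 8619032 to 8619869) was the most abundant ligand gene of all. It ranked 273rd of 15205 tested genes by mean level. It had 922, 969.5 and 882 FPKM in the ptr-8 libraries against 1261, 1184 and 1219 in the DCL33 libraries. grd-14 followed with 289, 178 and 299 FPKM in the ptr-8 strain against 411, 352 and 237 in DCL33, and its strains overlapped. Its neighbour grd-4 starts 301 bp downstream on the same strand and was at 0.531 FPKM or less throughout. grd-13, grd-3 and grd-10 lie in a row on the plus strand of chromosome IV, between 3438312 and 3441788, and all were expressed, with means over the 6 libraries of 42.7, 64.2 and 80.7 FPKM. grd-10 is known from reporter animals as a seam cell gene. In all 3 neighbours DCL33 replicate 1 was the lowest of the 6 libraries, and in each DCL33 replicate 2 was the highest of its strain. grd-6 was at 21.7, 26.7 and 22.2 FPKM in the ptr-8 strain against 23.98, 17.96 and 12.98 in DCL33, and DCL33 replicates 2 and 3 lay below all ptr-8 libraries. grd-12 averaged 6.17 ± 2.17 in the ptr-8 strain and 7.41 ± 1.27 in DCL33. The 6 groundhog genes that were not tested, grd-4, grd-7, grd-8, grd-9, grd-16 and the pseudogene grd-17, stayed at or below 1.0103 FPKM in every library.

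The ground-like family held the most members, from strongly expressed genes to genes listed at 0. grl-16 (chromosome I, 572177 to 575119) had 341, 407 and 328 FPKM in the ptr-8 strain against 467, 476 and 446 in DCL33. grl-15 (chromosome III, 12232632 to 12235711) had 299, 248 and 303 FPKM in the ptr-8 strain against 307, 498 and 547 in DCL33. Both genes were lower in every ptr-8 library than in any DCL33 library. grl-5 had 273, 346 and 291 FPKM in the ptr-8 strain against 303, 432 and 452 in DCL33, and grl-7 had 224, 267 and 227 FPKM in the ptr-8 strain against 241, 356 and 378 in DCL33. In both, only DCL33 replicate 1 lay within the range of the ptr-8 strain. grl-21 and grl-4 were the other ground-like genes above 100 FPKM. Between 1 and 10 FPKM were grl-1, grl-2, grl-6, grl-8, grl-12, grl-14, grl-18 and grl-22. Of these, grl-2, which is expressed in the duct and pore cells of the excretory system, had 1.79, 2.09 and 1.09 FPKM in the ptr-8 strain against 1.56, 2.47 and 2.54 in DCL33. grl-14 had the tightest DCL33 values of the 8, at 4.11 ± 1.27 in the ptr-8 strain and 4.27 ± 0.0706 in DCL33. At the other end, 15 of 32 ground-like genes were below the level needed for a test, and grl-19 and grl-28 are listed at 0 in all 6 libraries. grl-28, grl-29, grl-30, grl-31 and the pseudogene grl-32 sit together on chromosome V between 3551346 and 3560508. The first 4 of them reached at most 0.916 FPKM in any library. grl-27, at 3575119 to 3575874 on the same chromosome, was expressed at 27.5 ± 1.03 FPKM in the ptr-8 strain and 21.8 ± 9.07 in DCL33 (SD, n = 3 each).

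qua-1 and hog-1 stand alone in their families. qua-1, which is required for molting, had 77.9, 88.7 and 88.3 FPKM in the ptr-8 libraries against 93.2, 133 and 142 in DCL33, without overlap. hog-1, whose product has a Hog domain without any of the known amino-end domains, had 41.2, 47.4 and 47.2 FPKM in the ptr-8 strain against 43.6, 57.7 and 73.3 in DCL33, and 43.6 fell inside the range of the ptr-8 strain.

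The comparison of the strains asks which ligand genes differ with the ptr-8 allele, on a background mutant for eat-2 and acs-20. Of the 61 genes, 39 reached a scaled FPKM of 1 in 3 libraries and were tested with limma on log2(scaled FPKM + 1), with p-values adjusted over all 15205 tested genes. At an adjusted p below 0.05, 1 ligand gene was lower in the ptr-8 strain and none was higher. That is 2.56% of those tested, against 2.29% of all tested genes (348). For all tested genes, 1.94% were called lower (295) and 0.349% higher (53), so the share called was close to that of all genes. At an unadjusted p below 0.05 in either direction there were 8 ligand genes, or 20.5%, against 20.7% of all tested genes. All 8 were lower, and the share of all tested genes lower at that p was not counted. The count rests on which libraries are used. Without DCL33 replicate 1, 5 ligand genes were called (4 lower and 1 higher), with 4.38% of all tested genes called (1.74% higher and 2.63% lower). With any other 1 library left out, 0 ligand genes were called by limma. The share of all tested genes called was then 0.562%, 1.07% and 0.531% without ptr-8 replicates 1, 2 and 3, and 0.674% and 0.601% without DCL33 replicates 2 and 3.

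wrt-8 was the gene called lower. It lies on chromosome V (WBGene00006954, 15342085 to 15344572, minus strand, 11 exon blocks), 4579 bp from wrt-7, and encodes a warthog protein with a Hog domain. It had 4.76, 4.13 and 5.10 FPKM in the ptr-8 libraries against 9.58, 15.8 and 14.3 in the DCL33 libraries. The strains did not overlap, and the ptr-8 libraries lay closer to each other than the DCL33 libraries did. The strain means were 4.66 ± 0.491 and 13.2 ± 3.23 (SD, n = 3 each), so the ptr-8 strain had 35.3% of the DCL33 level. The log2 fold change was -1.30 (SE 0.20, limma adjusted p = 0.0337). The deposited intervals of the ptr-8 libraries ended at 5.37, 6.17 and 5.24 FPKM before scaling, and those of DCL33 began at 8.96, 13.03 and 11.6. These values rest on 151, 256 and 121 implied fragments in the ptr-8 strain and 311, 635 and 218 in DCL33.

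The direction of wrt-8 was the same in all 13 alternative fits, and the call held in 5 of them. Its log2 fold change lay between -1.50 and -1.17 with each library left out in turn. The call was kept without DCL33 replicate 1 (adjusted p = 0.0185) and lost without any other 1 library (highest adjusted p 0.138, without DCL33 replicate 3). It was also lost with no filter on level (adjusted p = 0.0557). With the mean level of 4 adult-stage collagen genes as a covariate, the log2 fold change was -1.02 (SE 0.26, adjusted p = 0.347). That mean was higher in every ptr-8 library than in any DCL33 library, so the fit cannot fully separate it from strain.

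**Figure D2:**
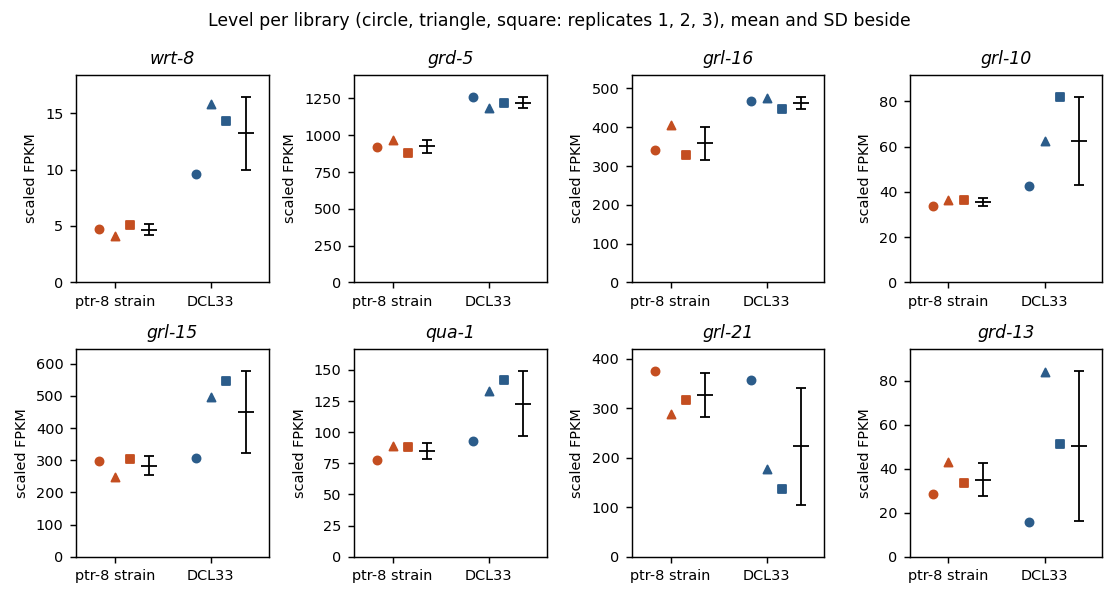
Scaled FPKM per library for 8 ligand genes, with the ptr-8 strain on the left of each panel and DCL33 on the right. Symbols mark replicates and bars the mean ± SD. wrt-8, grd-5, grl-16, grl-10, grl-15 and qua-1 do not overlap between strains, whereas grl-21 and grd-13 do and spread widely in DCL33.

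Of the 39 tested ligand genes, 9 were lower in every ptr-8 library than in every DCL33 library, or 23.1%, against 14.1% of all tested genes. None was higher without overlap, against 13.6% of all tested genes. Besides wrt-8 these were grd-5, grl-16, grl-10, grd-2, qua-1, grl-15, grl-1 and grd-11, and none of these 8 passed over all genes. The steadiest was grd-5, at 925 ± 43.7 in the ptr-8 strain and 1221 ± 38.9 in DCL33 (log2 fold change -0.40, SE 0.10, limma adjusted p = 0.0992). Next came grl-16 (log2 fold change -0.37, SE 0.11, limma adjusted p = 0.151). grl-10, with 33.5, 36.4 and 36.5 FPKM in the ptr-8 strain against 42.8, 62.5 and 81.9 in DCL33, had a larger estimate and a wider spread (log2 fold change -0.75, SE 0.23, limma adjusted p = 0.159). The annotated end of grl-10 overlaps the abundant ribosomal protein gene rpl-39 on the other strand by 18 bp, and since it is not given whether the libraries keep strand, reads of the overlap cannot be assigned.

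grd-2, with a Hog domain, had 11.9, 15.3 and 13.99 FPKM in the ptr-8 strain against 16.4, 21.1 and 22.1 in DCL33 (log2 fold change -0.50, SE 0.15, limma adjusted p = 0.160). qua-1 and grl-15 had log2 fold changes of -0.51 (SE 0.17, limma adjusted p = 0.192) and -0.63 (SE 0.23, limma adjusted p = 0.211). grl-1 had 4.98, 5.45 and 4.37 FPKM in the ptr-8 strain against 6.63, 8.58 and 5.76 in DCL33 (log2 fold change -0.42, SE 0.16, limma adjusted p = 0.229). In grl-15 the gap between the strains was narrow, since DCL33 replicate 1 (307) lay just above ptr-8 replicate 3 (303). Without DCL33 replicate 1, grl-10, grl-15 and qua-1 were called lower (limma adjusted p = 0.0371, 0.0404 and 0.0404).

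No ligand gene was called higher with all 6 libraries, and the largest estimates above 0 belonged to genes whose strains overlapped. grl-21 had 375, 289 and 317 FPKM in the ptr-8 strain against 357, 177 and 136 in DCL33 (log2 fold change 0.67, SE 0.35, limma adjusted p = 0.337). Only without DCL33 replicate 1, which was as high as the ptr-8 libraries, was it called higher (log2 fold change 1.06, limma adjusted p = 0.0434). grd-3 had 60.0, 82.7 and 84.8 FPKM in the ptr-8 strain against 37.4, 79.3 and 41.3 in DCL33 (log2 fold change 0.58, SE 0.31, limma adjusted p = 0.333). The remaining estimates above 0.1 were those of grl-27 (0.41, SE 0.31) and grd-6 (0.38, SE 0.22), and neither passed. grd-15 was at 8.19, 6.21 and 6.45 FPKM in the ptr-8 strain and 12.8, 10.9 and 6.01 in DCL33, an estimate below 0 with overlap (log2 fold change -0.41, SE 0.27, limma adjusted p = 0.430).

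**Figure D3:**
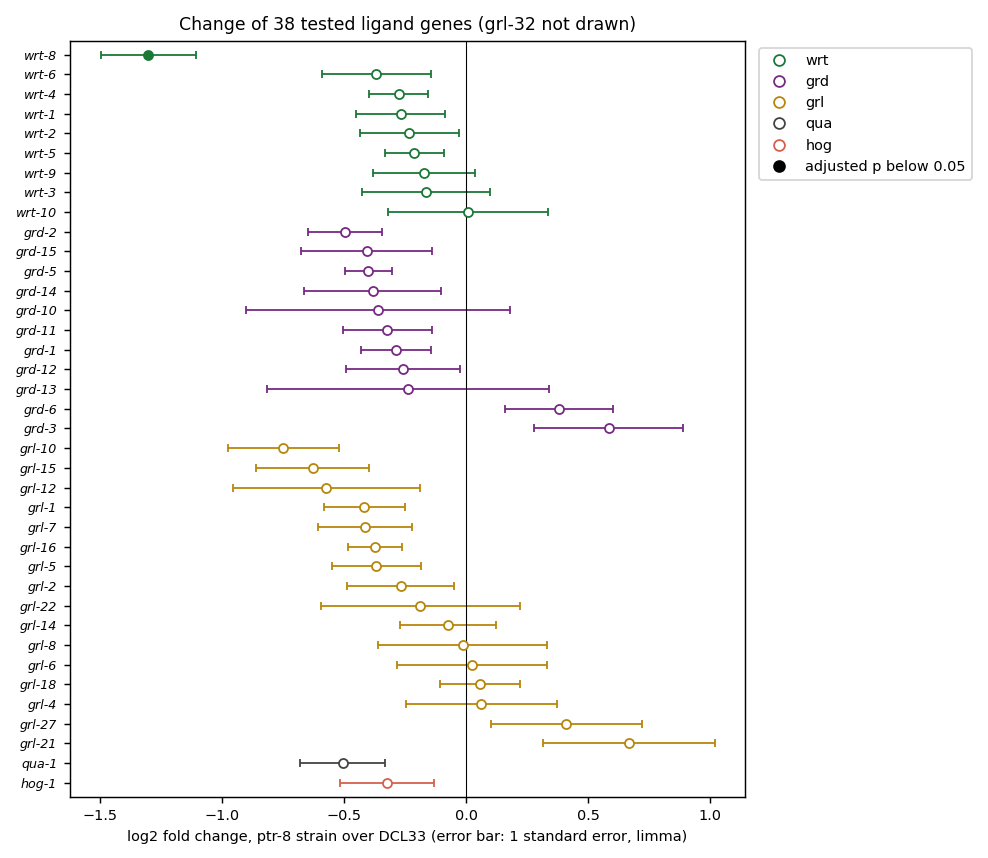
Log2 fold change of the ptr-8 strain over DCL33 for 38 tested ligand genes, grouped by family, with error bars of 1 standard error from limma. The filled point is wrt-8, at -1.30, and open points did not pass. Most estimates lie below 0, and those of grd-13 and grd-10 have the longest bars.

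As a group the estimates lay mostly below 0. The log2 fold change was below 0 in 31 of 39 tested ligand genes, or 79.5%, against 49.1% of all tested genes, and the medians were -0.28 for ligand genes and 0.01 for all tested genes. By family it was below 0 in 8 of 9 warthog, 9 of 11 groundhog and 12 of 17 ground-like genes, with medians of -0.23, -0.32 and -0.27. Without the pseudogene grl-32, it was below 0 in 30 of 38 ligand genes and in 11 of 16 ground-like genes. The summed ligand level without grl-32 was 3831, 4060.1 and 3878 FPKM in the ptr-8 libraries and 4589.9, 5128 and 4827 in DCL33, and grd-5 alone supplied the largest part of it. These genes were measured in the same 6 libraries, so they are not independent, and no test was made over the list. With the mean level of the adult-stage collagens as a covariate, 24 of 39 ligand genes (61.5%) were below 0, against 49.4% of all tested genes, and the ligand median was -0.08. With no scaling of the libraries, the median was -0.18 for ligand genes and 0.10 for all tested genes.

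Genes with a Hog domain can be set beside the rest. The domain is known in wrt-1, wrt-4, wrt-6, wrt-7, wrt-8, grd-1, grd-2, grd-11, qua-1 and hog-1, a list written with the results in view. All but wrt-7 were tested, and all 9 had a log2 fold change below 0, from -1.30 to -0.27 with a median of -0.33. With the collagen covariate 6 of the 9 were below 0, and wrt-1, hog-1 and grd-1 were above it. Of the 30 tested genes without the domain, 22 had a log2 fold change below 0, and their median was -0.24. The difference between the classes was not tested. grd-1, of the Hog class, averaged 15.4 ± 1.64 in the ptr-8 strain and 19.1 ± 2.91 in DCL33 (SD, n = 3 each), and grd-11 was at 1.23, 1.15 and 0.836 FPKM in the ptr-8 strain against 1.30, 1.44 and 2.09 in DCL33.

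The DCL33 libraries differed among themselves in the ligand genes more than the ptr-8 libraries did. The highest DCL33 library was over 2 times the lowest in 13 of 39 tested ligand genes (33.3%, against 14.7% of all tested genes), and the highest ptr-8 library was over 2 times the lowest in 4 (10.3%, against 12.2%). Those 4, grl-6, grl-8, grl-12 and grl-32, rest on at most 35 implied fragments per ptr-8 library. They are also among the 13, where they and grl-22 rest on at most 63 per DCL33 library. Apart from the pseudogene grl-32, grd-13 had the widest DCL33 range, with 28.5, 43.1 and 33.7 FPKM in the ptr-8 strain and 15.8, 84.0 and 51.1 in DCL33. grd-10 was similar, with 55.8, 49.9 and 90.6 FPKM in the ptr-8 strain and 35.9, 156 and 95.8 in DCL33. Replicate 1 was the lowest DCL33 library in 23 of the 39 genes, or 59%, against 36.9% of all tested genes.

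Stage markers also differed among the DCL33 libraries. The 4 genes listed as adult-stage collagens averaged, on the log2 scale, 8.68, 8.23 and 8.62 in the ptr-8 strain and 8.22, 7.27 and 6.29 in DCL33 replicates 1 to 3. None of them passed in limma (2 at an unadjusted p below 0.05). col-19, the collagen gene most used to mark the adult stage, had 737, 591 and 851 FPKM in the ptr-8 strain against 422, 217 and 74.4 in DCL33 (log2 fold change 1.91, limma adjusted p = 0.166). col-62 and col-7 had the same order of libraries within DCL33, but col-63 was highest in DCL33 replicate 3 (876, 1099 and 1288 in DCL33 replicates 1 to 3). grl-21, grl-4, grl-18, grd-6, grd-14 and grd-15 had the same order as col-19 among the DCL33 libraries, with grl-4 at 246, 245 and 216 FPKM in the ptr-8 strain and 357, 218 and 147 in DCL33. grl-10, grl-15, grl-7, grl-5, grl-2, grl-12, grd-1, grd-2, grd-11, qua-1, hog-1, wrt-1, wrt-4 and wrt-9 had the opposite order there, highest in replicate 3. grd-13, grd-10 and grd-3 had neither order and were highest in replicate 2. Replicate 3 was the highest DCL33 library in 38.5% of tested ligand genes, against 30.2% of all tested genes. It was the lowest in 30.8%, against 29.4%. The collagen mean was higher in every ptr-8 library than in any DCL33 library. A fit with it as a covariate thus cannot fully separate stage markers from strain. In that fit the log2 fold change turned sign in 17 of the 39 tested ligand genes, and the share over all tested genes was not counted. Among the 17 were grl-4 (-0.70), grl-21 (-0.22), wrt-1 (0.14), hog-1 (0.14), grl-5 (0.03, SE 0.17) and grl-7 (0.02, SE 0.16). It stayed below 0 for grd-5 (-0.41), grl-16 (-0.36), grl-10 (-0.18), grl-15 (-0.17), qua-1 (-0.12) and wrt-4 (-0.07). The part of developmental stage in the strain difference was not tested.

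**Figure D4:**
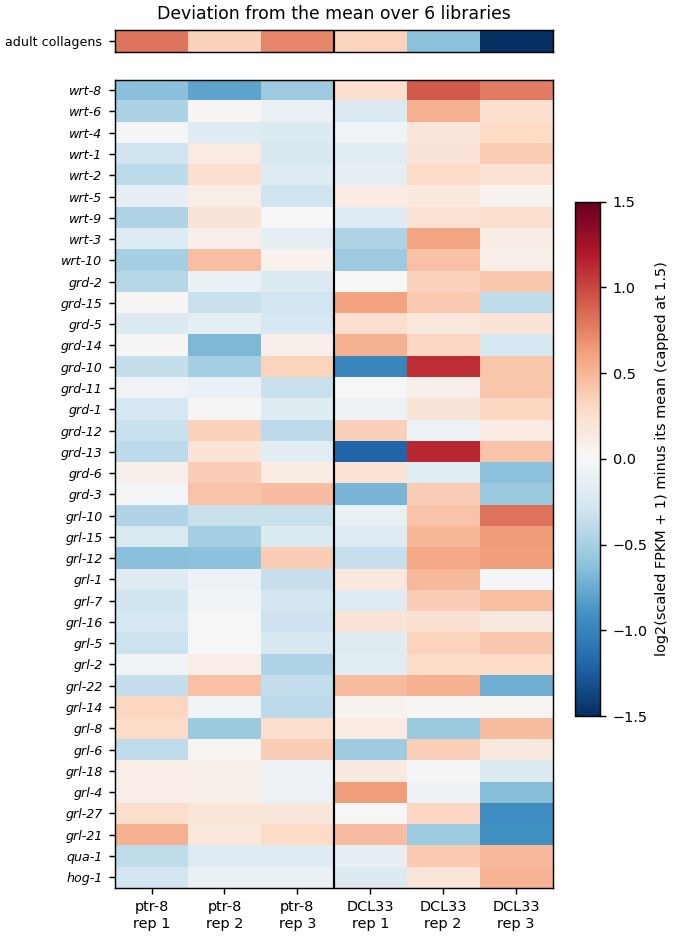
Log2(scaled FPKM + 1) of 38 tested ligand genes in each library minus the mean of that gene over 6 libraries, with the mean of 4 adult-stage collagens in the top row. Columns are ptr-8 replicates 1 to 3, then DCL33 replicates 1 to 3, and colours are capped at 1.5 above or below the mean. DCL33 replicate 1 is closer to the ptr-8 libraries than DCL33 replicates 2 and 3 in wrt-8, grl-10, grl-15 and qua-1, the genes called lower without it. It was the DCL33 library nearest the ptr-8 strain mean in 21 of 39 tested ligand genes (53.8%), against 45.9% of all tested genes.

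Molting genes and epidermal markers were taken as further lists. Of 17 molting regulators and precuticle genes, among them the nuclear receptor gene nhr-23 and mlt-10, none passed in limma. At an unadjusted p below 0.05 there were 4, against 20.7% of all tested genes. Their log2 fold changes were below 0 in 13 of 17, against 49.1% of all tested genes, with a median of -0.21. Of the 4, bli-5, mlt-10 and mlt-8 were lower. The other, mlt-7, was higher without overlap, with 32.6, 30.5 and 34.6 FPKM in the ptr-8 strain against 30.1, 23.1 and 17.4 in DCL33. The 2 of lowest p among these 17 were bli-5, which encodes a protein with a protease inhibitor domain (20.3 ± 2.07 in the ptr-8 strain, 26.9 ± 4.30 in DCL33, limma adjusted p = 0.214), and mlt-10 (149 ± 21.7 in the ptr-8 strain, 211 ± 44.4 in DCL33, limma adjusted p = 0.225). All 5 epidermal markers were detected, and none passed (none at an unadjusted p below 0.05). On the log2 scale they averaged 7.43, 7.90 and 7.69 in the ptr-8 strain and 7.55, 8.12 and 8.05 in DCL33, so DCL33 replicate 1 was the lowest of its strain. The 5 seam markers, 4 of them tested, averaged 2.00, 2.504 and 2.25 in the ptr-8 libraries and 2.12, 2.32 and 2.45 in DCL33. Markers of glia (6 listed, 5 tested) averaged 1.86 to 1.97 in the ptr-8 libraries and 1.85 to 2.12 in DCL33. Pharynx markers (4) averaged 3.31 to 3.92 in the ptr-8 strain and 3.53 to 3.97 in DCL33, and intestine markers (4) averaged 6.49 to 6.63 in the ptr-8 strain and 6.39 to 6.67 in DCL33. Within DCL33, replicate 1 was the lowest in the seam, glia, intestine and molting averages as well, but the highest in the pharynx average. No marker of these cell types passed or was at 0 in every library. Their part in the ligand differences was not tested.

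Among 29 listed patched- and dispatched-related genes, 27 were tested. Only ptr-8 passed, and 8 had an unadjusted p below 0.05 in limma, as did 20.7% of all tested genes. The median log2 fold change was -0.24, with 20 of 27 below 0, against 49.1% of all tested genes. The 27 include ptr-8 itself and the annotated pseudogene ptc-2. Higher in every ptr-8 library than in any DCL33 library were ptr-13 (log2 fold change 0.42, SE 0.14) and ptr-24 (0.24, SE 0.11). Lower without overlap, of those tested, were ptc-3, ptr-1, ptr-6, ptr-8, ptr-17, ptr-18 and ptr-22. Over all tested genes, 14.1% were lower without overlap and 13.6% higher. ptr-22 was nearest to the threshold, with 12.4, 13.5 and 11.3 FPKM in the ptr-8 strain against 19.5, 23.6 and 28.7 in DCL33 (log2 fold change -0.88, SE 0.16, limma adjusted p = 0.0506). ptc-3, a patched gene, averaged 40.2 ± 3.09 in the ptr-8 strain and 58.3 ± 13.4 in DCL33, and ptc-1, the other main patched gene, 37.1 ± 3.30 in the ptr-8 strain and 33.0 ± 1.32 in DCL33 (limma adjusted p = 0.207 and 0.393). Of 11 other genes around the pathway none passed (1 at an unadjusted p below 0.05). In this list ncr-1, of the Niemann-Pick C sterol transporters, had the lowest p, with 7.19 ± 0.813 in the ptr-8 strain and 11.1 ± 0.562 in DCL33 (limma adjusted p = 0.0678). tra-1, which encodes the Gli-related transcription factor, was at 13.6, 9.44 and 12.9 FPKM in the ptr-8 strain and 9.82, 9.08 and 8.86 in DCL33 (limma adjusted p = 0.285).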

How the data were processed

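Per the labels' protocols, RNA of whole animals was purified with a phenol reagent and columns and sequenced from VAHTS Universal V8 libraries. Tools listed by the submitters' processing notes, without their role, are TopHat2, DESeq2, HTSeq and FastQC 0.11.5. The genome build, sequencing depth and strandedness are not given in the sources. The authors deposited 1 table of gene FPKM with interval bounds per library, in the layout of Cufflinks per the file headers.

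FPKM was divided by a trimmed mean of log ratios per library (trimming 30% of the ratios and 5% of the levels from either end), with factors from 0.869 to 1.33. Loci under 200 bp and 9 further genes marked FAIL were left out. Genes needed a scaled FPKM of 1 in 3 libraries (in 2 with a library left out). limma 3.58.1 (R 4.3.3) used a mean-variance trend and log2(scaled FPKM + 1), a scale that understates changes of low genes, with strain as the only term, and p-values were adjusted by Benjamini-Hochberg. The procedure was tested on simulated data with noise drawn separately for each gene and library. Differences shared by many genes of a library were not simulated. Implied fragments are the squared ratio of FPKM to its standard error, reading the interval's half-width as 2 standard errors. Between 77.8% and 80.3% of low values per library came within 0.1 of a whole number, so they are estimates and cover counting error only.

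All 61 genes matched an identifier and chromosome in the WBcel235 annotation, and 59 lay within 1000 bp. Positions are those of the files, raised to start at 1, and exons and strands those of the annotation. No sequences are shown. The members and lists were chosen with earlier results of these data known. Library values are given for ligand genes that passed, for the 3 largest changes and 2 highest levels per family, and for others chosen after their values were seen (wrt-5, grd-6, grd-10, grd-11, grd-13, grl-1, grl-2, grl-4, grl-5, grl-7). Alternatives were 3 other scalings, leaving out the filter, a smaller pseudocount (0.1), replicate number as a block, a collagen covariate and leaving out each library.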

Additional observations from a re-analysis of the deposited data

How the results depend on the processing

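The number of ligand genes lower in the ptr-8 strain was 1, but 0 with no filter on level, with the replicate block and with the collagen covariate, and 0 to 4 with 1 library left out. The number higher was 0, and 0 to 1 with 1 library left out. The median log2 fold change of the ligand genes was -0.28, and -0.0821 with the collagen covariate. Over all tested genes, 348 calls became 160 with the replicate block, 16 with the covariate and 82 to 676 with 1 library left out. Without scaling 66 were higher and 178 lower, against 53 and 295. Other pathway genes had 1 call, 2 with median-of-ratios scaling, 0 with the covariate and 1 to 4 with 1 library left out, and molting and stage genes had 0, and 1 (col-19) without scaling. With the covariate, the estimates of 17 of the 39 tested ligand genes turned sign, among them, of the 17 genes chosen by rule, those of wrt-1 (0.14), grl-21 (-0.22) and hog-1 (0.14). The covariate itself differed between the strains without overlap. With 1 library left out, the estimate of wrt-10 ran from -0.26 to 0.26 and that of the pseudogene grl-32 from -3.15 to 1.09. The causes were not tested, beyond fewer libraries or more genes in those fits. Of 221 values for those 17 rule-chosen ligand genes under 13 alternatives, 201 kept their direction and side of the threshold.

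Replicate numbers share only a number: same-numbered libraries had correlations of deviations from the strain means of 0.25, 0.05 and 0.03, and not every library correlated best with its own number. With the block wrt-8 had an adjusted p of 0.0843. With 3 libraries per strain and at most 12 implied fragments per library for all untested ligand genes but grd-16 and grl-17, differences among genes below 1 FPKM were not detectable at this depth.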
